A study of Mus musculus with 9 samples.

Results

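The genes described here encode the enzymes of cholesterol and fatty acid synthesis and the proteins that control them, in RAW 264.7 cells, a mouse macrophage line. They were fixed as a list of 31 genes of the SREBP pathway, and a member was any probe set whose platform annotation gives 1 of those genes and no other. That rule found 58 of the 22626 probe sets tested, for 29 of 12393 named genes. Insig1 and Acat2 had no such probe set and are not analysed here. Total RNA was measured on 9 Affymetrix mouse arrays: 3 of cells given LPS, a lipopolysaccharide of the bacterial outer membrane (100 ng/ml, 18 h), 3 of cells labelled as constitutively overexpressing CstF-64, and 3 of untreated cells. All groups are RAW 264.7 cells. CstF-64 is a subunit of the factor that cleaves pre-mRNA at its 3' end. The sources used here do not give the construct, its promoter, or whether the overexpressing cells are 1 clone or a pool, and no group carries an empty construct. Nothing in the labels says that the arrays of a group came from separate cultures, so p-values measure only how far these arrays differ, and that spread may be technical.

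Cells make cholesterol from acetyl-CoA through mevalonate, farnesyl diphosphate, squalene and lanosterol, and make fatty acids from acetyl-CoA through malonyl-CoA. Most enzymes of both routes are transcribed under the SREBP factors, which sit in the membrane of the endoplasmic reticulum with their escort Scap and are held there by Insig proteins when sterols are plentiful. When sterols fall, the factors are carried to the Golgi, cut free and enter the nucleus. In macrophages, lipid synthesis is known to be reset during the response to LPS, and membrane cholesterol and unsaturated fatty acids bear on inflammatory signalling.

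Values are deposited intensities, in arbitrary units on a linear scale. Changes are differences of log2(intensity + 13), tested with limma over all 22626 probe sets. "Fell" or "rose" is used of changes with an adjusted p below 0.05. A gene is represented by its brightest probe set, and all 29 brightest probe sets had a mean above 31.2, the highest value of the Bacillus control probe sets and the background limit used here. Array medians were 42.75 to 49.3 in the LPS group, 51.1 to 54.2 in the group labelled CstF-64 and 52.3 to 52.7 in untreated cells. LPS array 1 had the lowest mean correlation with its own group, r = 0.966 against 0.977 and 0.978 for LPS arrays 2 and 3, and CstF-64 array 1 had 0.975 against 0.982 and 0.983. The macrophage markers Cd68, Csf1r and Lyz2, from a list of 11, were bright in every array. Mrc1 of the same list had group means below background, 20.1 for LPS, 21.9 for CstF-64 and 29.2 for untreated cells. Il1b, a cytokine induced by LPS, read 2787 to 4649.2 in the LPS arrays, 32.5 to 44.1 in the arrays labelled CstF-64 and 30.8 to 101.9 in the untreated arrays. Cstf2, which encodes CstF-64, read 317.9, 361.5 and 394.5 in the arrays labelled CstF-64, against 397.8, 363.1 and 372.2 in the untreated arrays (log2 -0.08, limma adjusted p = 1.0, exact permutation p = 0.4, two-sided). A dimmer probe set read 80.4 to 97.1 in those arrays and 100.2 to 134.1 in the untreated arrays. The data therefore did not show more Cstf2 transcript in the arrays labelled CstF-64. Whether these probes lie in the expressed sequence is not known. After LPS the brighter Cstf2 probe set fell to 220.5, 248.1 and 195.9 (log2 -0.74, limma adjusted p = 0.00343). The dimmer one was not called (log2 0.03, limma adjusted p = 0.94). Between LPS cells and cells labelled CstF-64 the brighter one was lower in LPS (log2 -0.66, limma adjusted p = 0.0066). The dimmer one was again not called (log2 0.39, limma adjusted p = 0.136).

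Promoter sequences are shown for 3 genes that fell after LPS, Fasn, Lbr and Nsdhl, and for Hmgcs1, the single member whose promoter held the letters TCACNCCAC of a sterol regulatory element. Each runs from 250 bases before to 50 bases after the annotated start, from RefSeq on GRCm38.p6, 5′ to 3′ on the strand of the gene. Capitals mark the letters searched on both strands: CCAAT, the box bound by NF-Y, GGGCGG, the GC box bound by Sp1, CACGTG, an E-box, and TCACNCCAC. The Fasn promoter lies at chr11:120824498-120824797 on the minus strand, that of Lbr at chr1:181842352-181842651 on the minus strand, that of Nsdhl at chrX:72918271-72918570 on the plus strand and that of Hmgcs1 at chr13:119690101-119690400 on the plus strand.
Fasn: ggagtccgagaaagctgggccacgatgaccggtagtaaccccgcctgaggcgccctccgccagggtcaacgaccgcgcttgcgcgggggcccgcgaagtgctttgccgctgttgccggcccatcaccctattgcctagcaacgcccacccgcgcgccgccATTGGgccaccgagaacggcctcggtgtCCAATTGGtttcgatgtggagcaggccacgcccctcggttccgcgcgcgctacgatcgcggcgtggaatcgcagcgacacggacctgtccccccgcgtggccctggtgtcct
Lbr: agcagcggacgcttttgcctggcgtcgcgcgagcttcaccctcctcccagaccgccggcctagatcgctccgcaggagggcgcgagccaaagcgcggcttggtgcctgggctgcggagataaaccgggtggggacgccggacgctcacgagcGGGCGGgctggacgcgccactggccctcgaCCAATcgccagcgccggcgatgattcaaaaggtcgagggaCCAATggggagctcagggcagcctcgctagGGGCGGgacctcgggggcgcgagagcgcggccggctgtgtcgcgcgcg
Nsdhl: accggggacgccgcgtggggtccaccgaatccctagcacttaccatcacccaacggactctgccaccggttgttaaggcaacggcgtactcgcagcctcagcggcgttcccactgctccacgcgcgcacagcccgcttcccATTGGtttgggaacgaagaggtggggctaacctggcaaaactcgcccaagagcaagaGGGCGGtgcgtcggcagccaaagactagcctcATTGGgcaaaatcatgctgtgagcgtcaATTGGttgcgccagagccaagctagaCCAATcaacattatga
Hmgcs1: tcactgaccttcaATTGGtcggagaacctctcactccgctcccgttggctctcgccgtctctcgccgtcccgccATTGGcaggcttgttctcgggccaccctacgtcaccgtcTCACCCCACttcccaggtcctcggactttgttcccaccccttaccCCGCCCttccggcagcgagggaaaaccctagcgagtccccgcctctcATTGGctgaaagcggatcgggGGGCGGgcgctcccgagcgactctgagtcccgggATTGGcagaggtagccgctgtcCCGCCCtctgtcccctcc

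The Hmgcs1 match to TCACNCCAC starts 137 bases before the start, between CCAAT matches that start 176 and 45 bases before it. In the Fasn promoter, CCAAT matches on the plus and minus strand of the gene overlap in the run CCAATTGG, which starts 62 bases before the start. The table held promoters for 23 of the 29 genes. Fdft1, Fdps, Sqle, Stard4, Scd1 and Scd2 were not among them. Counting a gene once if any of its promoters holds the letters, CCAAT was found in 20 of the 23 genes, or 87.0%, against 41.1% of 27025 genes in the table. GGGCGG was found in 18 of 23, or 78.3%, against 38.2%, and CACGTG in 5 of 23, or 21.7%, against 8.09%. TCACNCCAC was found in 1 of 23, against 1.44% of all genes. Of the 7 genes that fell after LPS and had a promoter in the table, CCAAT was in 6, GGGCGG in 4, CACGTG in 2 and TCACNCCAC in 0. These are matches of letters and not measured binding. The 27025 genes were not limited to genes measured here or above background, whereas all members were above background.

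After 18 h of LPS, 10 of the 29 genes fell, none rose and 19 were not called. The 10 are 34.5% of the members. Of all 12393 genes 10.4% were called lower and 6.67% higher, and of the 8000 genes whose mean was above background 15.0% were called lower. The 10 were Fasn, Elovl5, Elovl6 and Scd1 of fatty acid synthesis, Sqle, Cyp51, Lbr, Nsdhl and Dhcr7 of sterol synthesis, and Stard4, which carries cholesterol. In 22 of the 29 genes all LPS arrays lay below all untreated arrays, and in none did they lie above, where 20.6% of all genes lay below and 13.3% above. Of the genes above background 27.7% lay below and 17.0% above. The median log2 change was -0.62 over the members and -0.03 over all genes. Only Insig2, Pmvk and Sc5d had a change above 0, of 0.31, 0.15 and 0.09 on the log2 scale (limma adjusted p = 0.393, 0.770 and 0.795), and the same 3 were above 0 after quantile normalization and after median centring. In bulk RNA, a lower level per cell and a changed share of cells cannot be told apart.

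**Figure D1:**
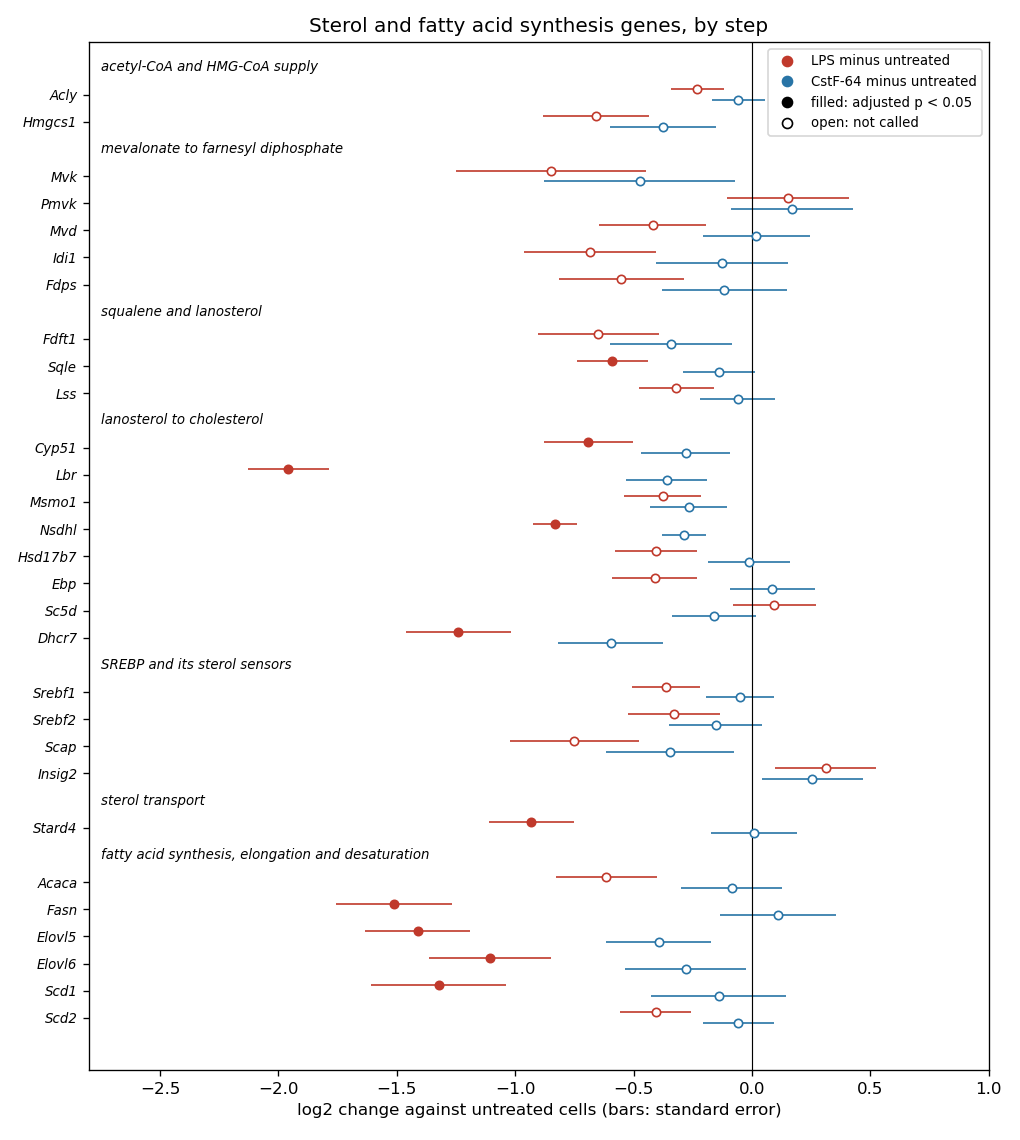
Log2 change of the 29 genes after LPS (red) and in cells labelled CstF-64 (blue), each minus untreated cells, ordered by step of the pathway. Points are limma estimates from 3 arrays a group, bars are standard errors, and filled points have an adjusted p below 0.05. The filled points are the 10 genes that fell after LPS, from -0.59 (Sqle) to -1.96 (Lbr), and no blue point is filled.

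Of the 6 genes of fatty acid synthesis, elongation and desaturation 4 fell, and their median log2 change was -1.22. Fasn, the synthase that builds palmitate, read 111.5, 231.0 and 188.6 in the LPS arrays, against 452.7, 647.5 and 450.5 in untreated cells. The groups did not overlap, and Fasn was 2.86-fold lower (log2 -1.51, SE 0.25, limma adjusted p = 0.0026). Scd1, the desaturase that makes oleate from stearate, read 164.5, 349.5 and 338.0 in the LPS arrays, against 522.3, 762.2 and 840.2 in untreated cells (log2 -1.32, SE 0.29, limma adjusted p = 0.0112). The lowest value of each of these 2 genes was that of LPS array 1.

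Both elongases fell. Elovl5, which lengthens polyunsaturated fatty acids, read 339.6, 703.5 and 566.2 in the LPS arrays, against 1261.5, 1501.0 and 1417.6 in untreated cells (log2 -1.41, SE 0.22, limma adjusted p = 0.00211). Elovl6, which lengthens palmitate to stearate, read 82.1, 146.7 and 133.1 in the LPS arrays, against 264.3, 287.0 and 253.4 in untreated cells (log2 -1.11, SE 0.26, limma adjusted p = 0.0161). For both, every LPS array was below every untreated array. Without untreated array 2 Elovl6 was no longer called (limma adjusted p = 0.0616). The other fatty acid genes missed the threshold, although their groups did not overlap. Acaca, the acetyl-CoA carboxylase that makes malonyl-CoA, read 40.5, 34.1 and 22.8 in the LPS arrays, against 55.2, 45.4 and 68.5 in untreated cells (log2 -0.62, limma adjusted p = 0.0798). Scd2, the desaturase paralog of Scd1, read 2388.3, 2792.7 and 2443.5 in the LPS arrays, against 2803.2, 3477.2 and 3910.7 in untreated cells (log2 -0.41, limma adjusted p = 0.0991).

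**Figure D2:**
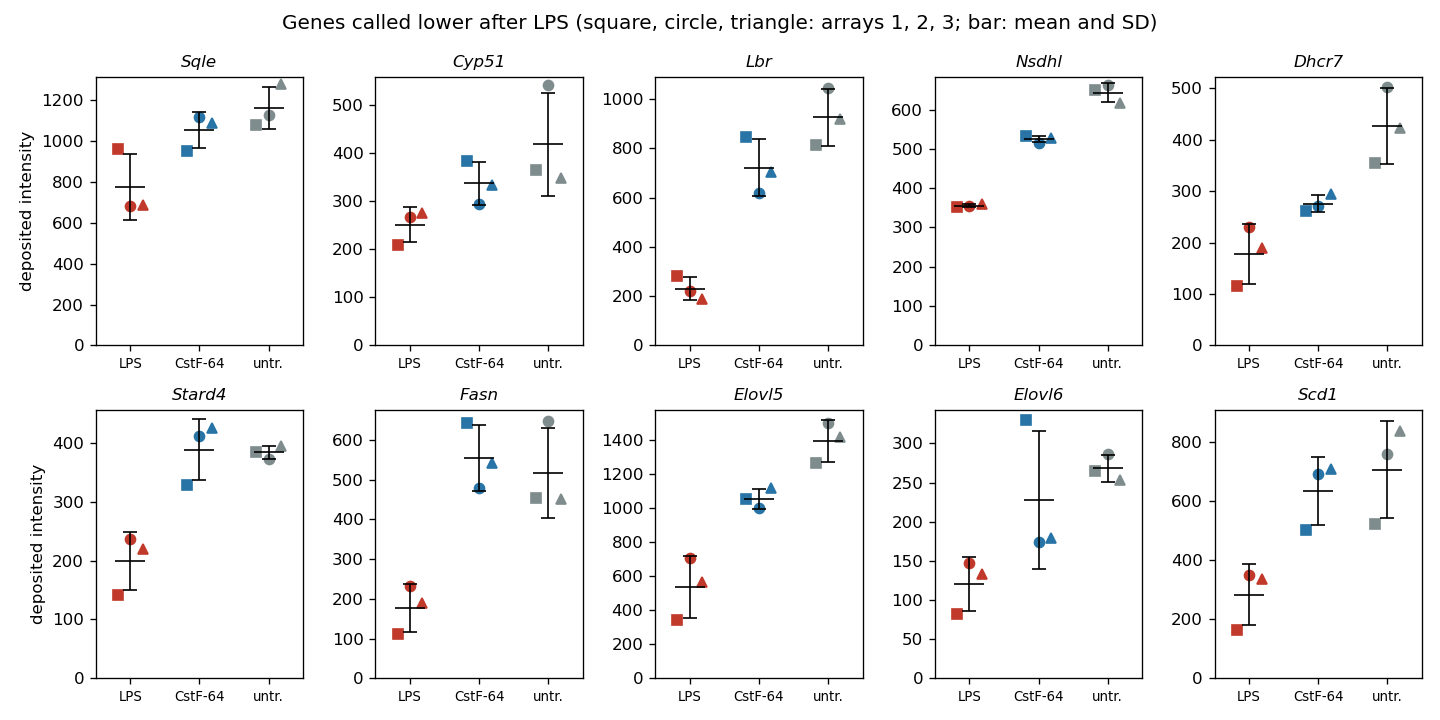
Deposited intensity of the 10 genes that fell after LPS, in every array of the LPS, CstF-64 and untreated groups. Squares, circles and triangles are arrays 1, 2 and 3, and bars are the mean and SD (n = 3). In all 10 panels the 3 LPS arrays lie below the 3 untreated arrays, and in 8 of them LPS array 1 (square) is the lowest.

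In sterol synthesis 4 of 8 genes from lanosterol to cholesterol fell, as did 1 of 3 genes of squalene and lanosterol. None of the 5 genes from mevalonate to farnesyl diphosphate was called through its brightest probe set, although a dimmer probe set of Idi1 fell. The median log2 changes of the 8 and of the 5 genes were alike, -0.55 in both, and a difference between late and early steps was not tested. Lbr, a sterol reductase that is also the lamin B receptor of the inner nuclear membrane, read 281.9, 220.6 and 189.2 in the LPS arrays, against 814.9, 1045.7 and 920.4 in untreated cells. It was 3.89-fold lower (log2 -1.96, SE 0.17, limma adjusted p = 6.47e-05), the largest change among the 29 genes. Dhcr7, the reductase of the last step to cholesterol, read 114.9, 230.2 and 189.1 in the LPS arrays, against 355.8, 502.5 and 423.6 in untreated cells (log2 -1.24, SE 0.22, limma adjusted p = 0.00433).

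Nsdhl, a dehydrogenase that helps remove methyl groups from the sterol ring, had the smallest standard error of the list. It read 351.7, 354.9 and 359.9 in the LPS arrays, against 650.7, 661.9 and 616.9 in untreated cells (log2 -0.83, SE 0.09, limma adjusted p = 0.000285). Cyp51, the lanosterol demethylase, read 209.8, 266.8 and 276.7 in the LPS arrays, against 366.3, 542.1 and 347.7 in untreated cells (log2 -0.69, limma adjusted p = 0.0317). Its groups did not overlap, but the untreated spread was wide, and the call was lost under 8 of 18 alternative settings, with adjusted p from 0.0193 to 0.103 over all of them. Sqle, the squalene epoxidase and a slow step of the pathway, read 961.2, 681.9 and 686.5 in the LPS arrays, against 1080.3, 1128.0 and 1280.7 in untreated cells (log2 -0.59, limma adjusted p = 0.025). Its call was lost under 5 of 18 alternatives, with adjusted p from 0.00229 to 0.0915.

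The other genes of the lanosterol branch had smaller changes that were not called. Msmo1, the methylsterol oxidase, read 639.8, 945.1 and 982.4 in the LPS arrays, against 1033.9, 1195.5 and 1064.5 in untreated cells (log2 -0.38, limma adjusted p = 0.157). Ebp, a sterol isomerase, and Hsd17b7, a ketosteroid reductase of the same route, had log2 changes of -0.41 each (limma adjusted p = 0.161 and 0.153). Without LPS array 1 the log2 change was -0.18 for Msmo1, -0.26 for Ebp and -0.23 for Hsd17b7. Sc5d, a sterol desaturase, read 289.57 ± 12.1 after LPS and 273.3 ± 52.2 in untreated cells (SD, n = 3 each).

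Among the early steps, the level of Hmgcs1, the synthase that makes HMG-CoA, was 453.5, 735.3 and 674.5 in the LPS arrays, against 788.6, 1145.9 and 1000.7 in untreated cells (log2 -0.66, SE 0.22, limma adjusted p = 0.0755). All LPS arrays were below all untreated arrays. Hmgcs1 was called when dim probe sets were left out of the test, and its limma adjusted p ran from 0.00768 to 0.230 over all alternatives. The same separation held for Acly, which makes cytosolic acetyl-CoA (log2 -0.23), for the mevalonate kinase Mvk (log2 -0.85), for the decarboxylase Mvd (log2 -0.42), for the farnesyl diphosphate synthase Fdps (log2 -0.55) and for the squalene synthase Fdft1 (log2 -0.65), with limma adjusted p from 0.124 to 0.264. Mvk read 18.0, 94.0 and 80.3 in the LPS arrays, against 121.4, 98.1 and 108.1 in untreated cells, and its change was -0.29 without LPS array 1. Without that array the log2 change was also smaller for Fdps (-0.21), Fdft1 (-0.33), Mvd (-0.22) and Lss (-0.18). For the isomerase Idi1 (log2 -0.68, limma adjusted p = 0.135) and the lanosterol synthase Lss (log2 -0.32, limma adjusted p = 0.220) LPS and untreated arrays overlapped.

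Stard4, a soluble carrier that moves cholesterol between membranes, read 142.3, 236.0 and 219.6 in the LPS arrays, against 384.6, 372.0 and 394.9 in untreated cells. The groups did not overlap, and Stard4 fell (log2 -0.93, SE 0.18, limma adjusted p = 0.00661), as did its second probe set (log2 -0.99, limma adjusted p = 0.0124).

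None of the 4 measured regulators was called after LPS. Srebf1, the factor known mainly for fatty acid genes, read 371.8, 306.5 and 359.9 in the LPS arrays, against 441.1, 530.7 and 381.5 in untreated cells (log2 -0.36, SE 0.14, limma adjusted p = 0.123), with no overlap between the groups. Srebf2, the factor known mainly for sterol genes, read 295.8, 392.8 and 348.1 in the LPS arrays, against 363.4, 510.7 and 442.3 in untreated cells (log2 -0.33, limma adjusted p = 0.315). Those groups overlapped. Scap, the escort protein, read 104.6, 64.4 and 75.2 in the LPS arrays, against 136.1, 186.8 and 115.4 in untreated cells (log2 -0.75, SE 0.27, limma adjusted p = 0.0932). The Scap groups did not overlap. Scap was called under 3 of 18 alternatives, with limma adjusted p from 0.0168 to 0.284 over all of them. Insig2, which retains the Scap complex, read 494.7, 284.5 and 295.2 in the LPS arrays, against 270.6, 251.2 and 312.4 in untreated cells, and LPS array 1 alone lay above all untreated arrays. Its change was 0.31 with that array and 0.06 without it, and its dimmer probe sets changed by -0.34 and -0.11, none called. Transcript levels do not measure how much of the SREBP proteins was cut and active.

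The 3 LPS arrays did not fall alike. The median of the 29 genes lay at -0.81, -0.39 and -0.46 log2 units from the untreated mean in LPS arrays 1, 2 and 3, while the median of all genes lay at 0.05, -0.07 and -0.08. LPS array 1 was the lowest LPS array for 21 of the 29 genes, or 72.4%, against 31.7% of all genes. Of the other 8 genes, Lbr, Sqle, Sc5d, Srebf1, Scap, Insig2 and Acaca read highest there and Acly lay between the other arrays. Array 1 was lowest most often in the other groups too. Arrays 1, 2 and 3 were lowest for 15, 12 and 2 of the 29 genes among those labelled CstF-64. Among the untreated arrays these counts were 14, 7 and 8. For array 1 the shares of all genes were 38.2% and 32.6%. Without LPS array 1, 9 of the 29 genes fell and none rose, Cyp51 being the call that was lost (limma adjusted p = 0.0876), and the median change was -0.41. The calls of Lbr, Nsdhl, Dhcr7, Stard4, Fasn, Elovl5 and Scd1 held under all 18 alternative settings.

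**Figure D3:**
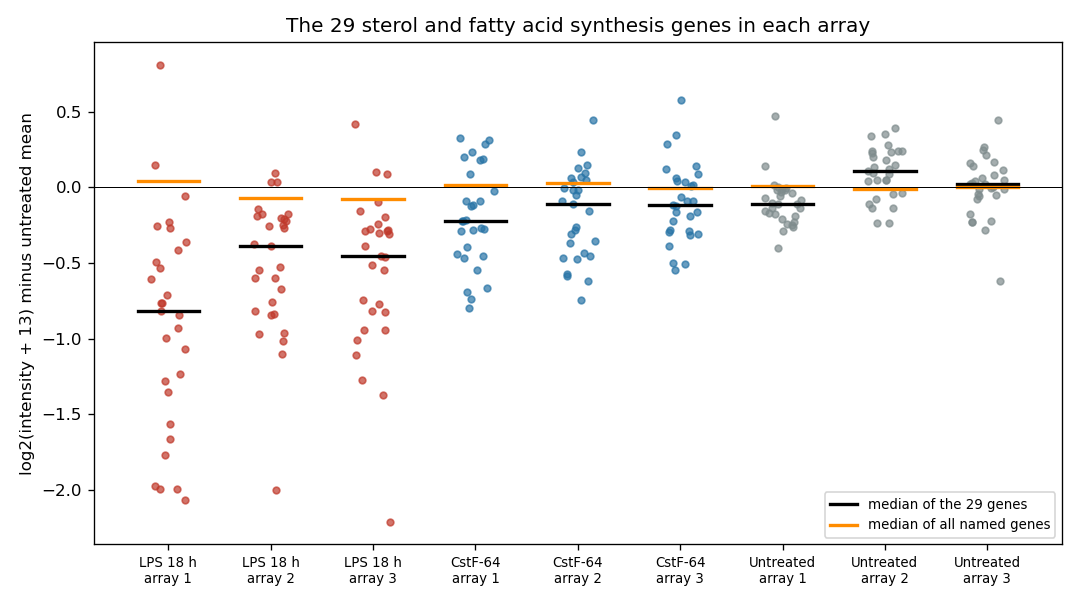
Each point is 1 of the 29 genes in 1 array, as log2(intensity + 13) minus the mean of the untreated arrays. Black lines are medians of the 29 genes and orange lines medians of all 12393 genes. The black lines of the LPS arrays lie at -0.81, -0.39 and -0.46, those of the arrays labelled CstF-64 at -0.22, -0.11 and -0.11, and those of the untreated arrays between -0.11 and 0.11.

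In cells labelled CstF-64 no gene of the list was called against untreated cells with limma. Over all genes 0.274% were called, so that a count of 0 of 29 is near the background. At an unadjusted p below 0.05, 2 of the 29 passed, Nsdhl and Dhcr7, as did 6.84% of all genes. The 29 genes had a median log2 change of -0.14, with 23 below 0, against a median of 0.01 over all genes, with 5943 of 12393 below 0. Without CstF-64 array 1 the members' median was -0.08 and 17 of the 29 were below 0, and without untreated array 2 the median was -0.07. In 6 genes, or 20.7%, all arrays labelled CstF-64 lay below all untreated arrays, against 6.02% of all genes and 7.35% of those above background. In no member did they lie above, where 7.41% of all genes did.

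Those 6 were Mvk, Fdft1, Msmo1, Nsdhl, Dhcr7 and Elovl5. Nsdhl read 531.5, 516.0 and 526.7 in the arrays labelled CstF-64, against 650.7, 661.9 and 616.9 in untreated cells (log2 -0.29, SE 0.09, limma adjusted p = 0.523). Dhcr7 read 262.3, 271.2 and 293.9 in the arrays labelled CstF-64, against 355.8, 502.5 and 423.6 in untreated cells (log2 -0.60, SE 0.22, limma adjusted p = 0.639). Elovl5 read 1052.3, 998.2 and 1115.3 in the arrays labelled CstF-64, against 1261.5, 1501.0 and 1417.6 in untreated cells (log2 -0.39, SE 0.22, limma adjusted p = 0.879). In these 3 genes the arrays labelled CstF-64 lay above every LPS array and below every untreated array. None of these adjusted p-values passed. Fasn averaged 554.2 ± 82.3 in the arrays labelled CstF-64 and 516.9 ± 113 in untreated cells, and Stard4 averaged 388.47 ± 52.2 in the arrays labelled CstF-64 and 383.83 ± 11.5 in untreated cells (SD, n = 3 each). For both genes the groups overlapped.

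LPS cells and cells labelled CstF-64 were compared directly, which tests whether the 2 changes from the shared untreated arrays differ. Of the 29 genes 6 were lower in LPS than in cells labelled CstF-64 and none was higher, 20.7% of the members. Of all genes 9.51% were called lower and 6.38% higher. The 6 were Fasn, Elovl5, Scd1, Lbr, Nsdhl and Stard4, all of which also fell against untreated cells. In 15 members every LPS array lay below every array labelled CstF-64, against 19.6% of all genes and 26.0% of those above background. Fasn read 111.5, 231.0 and 188.6 in the LPS arrays, against 641.8, 478.5 and 542.3 in the arrays labelled CstF-64 (log2 -1.62, SE 0.25, limma adjusted p = 0.00187). Lbr read 281.9, 220.6 and 189.2 in the LPS arrays, against 844.2, 617.3 and 702.3 in the arrays labelled CstF-64 (log2 -1.60, SE 0.17, limma adjusted p = 0.00025). No LPS array reached the lowest CstF-64 array for either gene. For the other 4 the log2 differences were -1.18 for Scd1, -1.02 for Elovl5, -0.94 for Stard4 and -0.55 for Nsdhl, with limma adjusted p from 0.00353 to 0.0208. The call of Scd1 was lost without CstF-64 array 2 or array 3, with an adjusted p of up to 0.0765. The dimmer probe sets of Scd1 and Elovl5 were not called in this comparison (limma adjusted p = 0.0723 and 0.0992), while that of Stard4 was (limma adjusted p = 0.0199).

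Dhcr7, Elovl6, Sqle and Cyp51 fell against untreated cells but were not called against cells labelled CstF-64 (log2 -0.64, -0.83, -0.45 and -0.41, limma adjusted p = 0.0836, 0.0586, 0.0773 and 0.187). Through these brightest probe sets a difference between the LPS and the CstF-64 change was not shown. A dimmer probe set was called lower in LPS for Cyp51 (log2 -0.71, limma adjusted p = 0.0134) and for Elovl6 (log2 -0.64, limma adjusted p = 0.0358). The brightest probe set of Elovl6 read 330.0, 174.5 and 179.3 in the arrays labelled CstF-64, with array 1 alone above all untreated arrays.

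Of the 29 genes 18 had 2 or more probe sets, and 15 of the 58 probe sets fell after LPS, where 10.7% of all probe sets were called lower. Elovl5, Elovl6, Stard4 and Cyp51 fell through 2 probe sets each. The second probe set of Idi1 fell, reading 79.7, 136.9 and 115.6 in the LPS arrays, against 231.6, 221.4 and 167.3 in untreated cells (log2 -0.84, limma adjusted p = 0.0222), while its brighter one was not called. Leaving out 4 probe sets at or below background in every array, the probe sets of 15 of the 18 genes agreed in sign after LPS. Those that did not were Fdft1, Sc5d and Insig2.

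For Fdft1 the brighter pair had log2 changes of -0.65 and -0.37, and the dimmer pair lay above 0. Of that pair, 1 probe set was at or below background in every untreated array and every array labelled CstF-64, and the other read 26.2 to 50.7 in untreated cells, so neither gives a firm size. No member had probe sets called unequal after LPS by limma's diffSplice F test, where 5.59% of 4956 genes were. The lowest adjusted p was that of Fdft1 (0.0853), and 2 members, Fdft1 and Lss, had an unadjusted p below 0.05, as 18.1% of all genes did. In the CstF-64 comparison no member was called either (0.0404% of genes), and none had an unadjusted p below 0.05 (2.66% of genes). Likewise between LPS cells and cells labelled CstF-64 no member was called (5.67% of genes) or had an unadjusted p below 0.05 (17.1% of genes). Which part of each transcript a probe set reads was not examined.

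**Figure D4:**
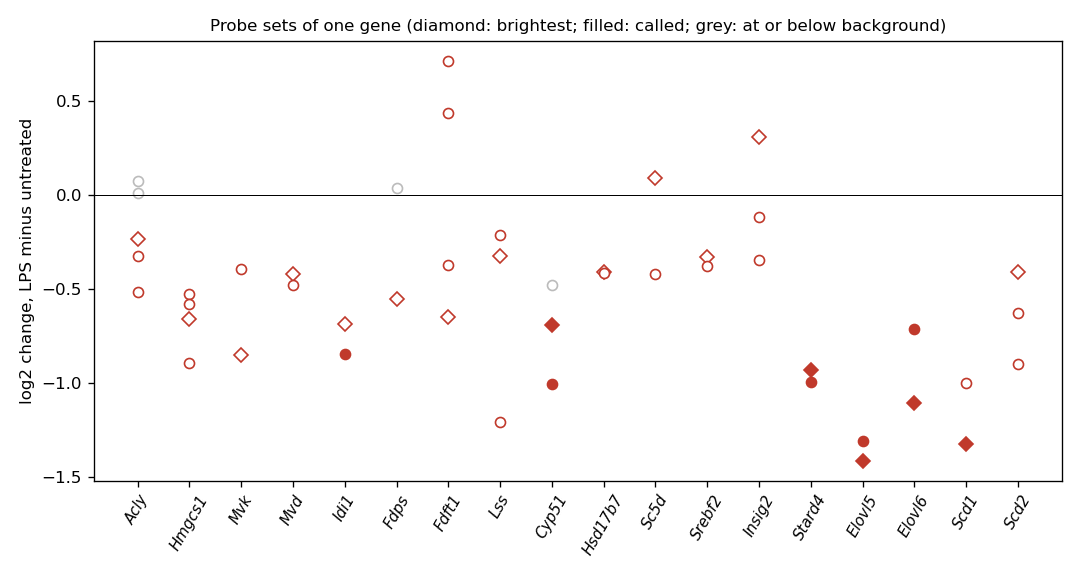
Log2 change after LPS, minus untreated cells, of every probe set of the 18 genes with 2 or more. Diamonds are the brightest probe set of a gene, filled symbols are called, and grey symbols lie at or below background in every array. The 2 probe sets of Stard4 lie at -0.93 and -0.99, while those of Fdft1 lie on both sides of 0, the 2 above 0 being near or below background in untreated cells.

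Outside the list, genes of the same pathways or of lipid handling beside them were called in both directions after LPS. Of 24 other genes of fatty acid synthesis and use that were measured, 3 fell (12.5%) and 1 rose, with a median log2 change of -0.10. Those shares are near the 10.4% of all genes called lower and 6.67% called higher. Gpam, which starts triglyceride and phospholipid assembly, fell (log2 -0.71, limma adjusted p = 0.00444), as did the desaturase Fads2 (log2 -0.82, limma adjusted p = 0.0338). The third was Thrsp, which lay below background in every array (log2 -0.57, limma adjusted p = 0.0451, lost under 13 of 17 alternatives). Me1, the malic enzyme that supplies NADPH, rose to 474.9, 384.0 and 342.2 in the LPS arrays, against 252.8, 219.2 and 208.1 in untreated cells (log2 0.78, limma adjusted p = 0.010). The call of Fads2 was lost under 8 of 18 alternatives, with adjusted p from 0.0178 to 0.119.

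Of 8 other sterol genes measured, 2 fell (25.0%) and 2 rose, where 10.4% of all genes were called lower and 6.67% higher. Osbp, an oxysterol-binding protein (log2 -0.61, limma adjusted p = 0.00739), and Acat1, the mitochondrial acetyl-CoA acetyltransferase (log2 -0.88, limma adjusted p = 0.00184), fell. Npc2, which takes cholesterol out of lysosomes, rose to 5595.6, 5206.0 and 5249.0 in the LPS arrays, against 3129.7, 3139.3 and 3703.6 in untreated cells (log2 0.69, limma adjusted p = 0.00446). Its partner Npc1 rose as well (log2 0.64, limma adjusted p = 0.0468), a call lost under 11 of 18 alternatives with adjusted p up to 0.140. Erg28 (log2 -0.40, limma adjusted p = 0.0646) and Tm7sf2 (log2 -0.46, limma adjusted p = 0.0755) were not called. For both, every LPS array lay below every untreated array. Ggps1 and Lipa were not called and their groups overlapped (log2 0.01 and 0.22).

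Of 17 genes that act on or beside SREBP, 2 fell (11.8%) and 1 rose after LPS, again near the 10.4% and 6.67% of all genes. Mbtps1, the Golgi protease that makes the first cut in SREBP, read 245.6, 226.7 and 223.4 in the LPS arrays, against 389.4, 439.4 and 359.2 in untreated cells (log2 -0.74, limma adjusted p = 0.00292). The groups were well apart. Rxrb, a retinoid X receptor (log2 -0.94, limma adjusted p = 0.0345, lost under 8 of 18 alternatives, with adjusted p from 0.00768 to 0.119), fell, and Mlx, a partner of the carbohydrate response factor, rose (log2 0.56, limma adjusted p = 0.0172). Ch25h, whose product 25-hydroxycholesterol restrains SREBP, read 19.7 to 39.2 in the LPS arrays, against 20.4 to 40.3 in untreated cells, near background throughout (limma adjusted p = 0.986). In cells labelled CstF-64 none of the genes in these 3 lists was called.

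Among markers of other cell types, adipocytes and hepatocytes make much lipid. Their 5 measured markers summed to 169.5 to 315.9 in the LPS arrays, 102.6 to 283.3 in the arrays labelled CstF-64 and 76.2 to 84.4 in the untreated arrays. Fabp4, which macrophages also express, held the highest of these values, 134.4 to 235.9 in the LPS arrays, 66.2 to 229.4 in the arrays labelled CstF-64 and 34.7 to 43.7 in untreated cells. It rose after LPS (log2 1.84, limma adjusted p = 0.00681), the only 1 of the 5 to be called. Adipoq, the defining adipocyte hormone, stayed at or below 14.7 in all 9 arrays. The part of these differences in the results above was not tested. Of 6 fibroblast, 6 lymphocyte and 6 endothelial and epithelial markers measured, 1 in each list had a group mean above background and none was called, and of 6 granulocyte and mast cell markers 4 had and none was called. The 11 macrophage markers summed to 23303.6 to 24282.2 in the LPS arrays, 15640.9 to 20219 in the arrays labelled CstF-64 and 15195.9 to 20120.9 in the untreated arrays, and 5 of them rose and 1, Csf1r, fell after LPS. None of the 11 was called in cells labelled CstF-64. Their lowest adjusted p was that of Adgre1, 209.5 to 230.6 there against 416.3 to 608.1 in untreated cells (limma adjusted p = 0.0777).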

How the data were processed

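Total RNA of 9 samples was hybridised and measured at a university core facility, per the labels. The authors deposited 1 intensity for each probe set in each array. The sources used here name no software, background correction or normalization. The 2% trimmed means of the 9 columns lay between 150.05 and 150.06, so the values were kept as deposited. No value was negative and no column repeated another. Precision is limited by the number of arrays, 3 in each group.

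Of 22690 probe sets, 64 controls were left out. Names came from a platform annotation table: 20380 probe sets had 1 gene, 691 several and 1555 none, and those with several or none were not named. Chromosomes and promoters came from RefSeq tables of GRCm38.p6. The scale of analysis was log2(intensity + 13), the added 13 being 0.25 times the overall median (50.2), rounded. This scale understates changes of dim probe sets. All 9 arrays entered 1 linear model with group means in limma 3.58.1 in R 4.3.3 (lmFit, eBayes with an intensity trend). Tests were two-sided and adjusted by the Benjamini-Hochberg method over 22626 probe sets, with a threshold of 0.05. Unequal probe sets were tested with limma's diffSplice F test over 4956 genes. An exact permutation test was run for Cstf2, whose smallest p with 3 against 3 arrays is 0.1. The fits were tested on simulated data.

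The members and gene lists were chosen with earlier results of these data known. All 29 measured members are accounted for. Genes outside the list were named by a rule: up to 4 per list by adjusted p among those called after LPS, and Cstf2. Fabp4, Adipoq, Ch25h, Il1b, Erg28, Tm7sf2, Ggps1, Lipa and the named macrophage markers were picked once their values had been seen. No p is given for a list. Alternatives were quantile normalization, median centring, pseudocounts of 1 and 50, leaving out dim probe sets, no intensity trend, only the 2 groups compared, the replicate number as a block, all probe sets of a gene, each array left out in turn and, chosen after seeing the data, LPS array 1 and CstF-64 array 1 left out together.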

Additional observations from a re-analysis of the deposited data

How the results depend on the processing

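Under all alternatives run, between 7 and 14 of the 29 genes fell after LPS and none rose (10 as reported). The count was 13 with quantile normalization, 8 with median centring, 14 with dim probe sets left out, 9 with only the 2 groups compared, 11 through all probe sets of a gene, and 7 to 11 with 1 array left out. No member was called in cells labelled CstF-64 under any alternative, and 5 to 8 were lower in LPS than in cells labelled CstF-64 (6 as reported). No called member changed sign. Scaling moved the background: the median change of all genes after LPS was -0.03 as deposited, 0.03 after quantile normalization and 0.13 after median centring, and the members' median was -0.62, -0.64 and -0.46. The members' median minus that of all genes was -0.59 as deposited, a gap that centring cannot move, -0.66 after quantile normalization and -0.34 without LPS array 1. After LPS, 35.7% of the 3755 probe sets called were higher as deposited, 46.2% of 3305 after quantile normalization and 60.5% of 3683 after median centring. For LPS against cells labelled CstF-64 these shares were 38.0%, 47.8% and 62.7%.

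Whether equal replicate numbers mark paired arrays was not settled. Same-numbered arrays of different groups had deviations correlating at -0.126 to 0.245, and 9 of 18 best correlations fell on the own number. The ratio of the 3' to the 5' actin control probe set was highest in array 1 of each group. It was 1.18 for LPS, 1.22 for CstF-64 and 1.2 for untreated cells, against 1.03 to 1.14 in the other arrays. A shared origin of same-numbered arrays was not tested. With the replicate block 11 members fell after LPS, Hmgcs1 being called there (adjusted p = 0.00768), 0 were called in cells labelled CstF-64, 7 were lower in LPS than in cells labelled CstF-64, and the probe sets called in cells labelled CstF-64 numbered 32 in place of 56.

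With 1 array left out, the probe sets called ranged from 2399 to 4118 for LPS against untreated cells, from 18 to 110 for CstF-64 against untreated cells, and from 2093 to 3299 for LPS against cells labelled CstF-64. The lowest counts came without untreated array 2 in the first 2 comparisons and without CstF-64 array 3 in the last. Without LPS array 1 and CstF-64 array 1 together, 286 probe sets were called in cells labelled CstF-64 and again no member, 4465 were called for LPS against untreated cells and 3867 for LPS against cells labelled CstF-64. Members with unequal probe sets after LPS numbered 0 to 1, the 1 being Fdft1 without LPS array 3 (adjusted p = 0.0192). The causes were not tested.

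Limits: 3 arrays a group, of unstated origin, allow few small changes to be called. Probe sets near background have only loosely measured changes. The deposited scaling fixes the level against which every fall is read, and the Sqle and Cyp51 calls were lost under median centring.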
